A study of Mus musculus with 8 samples.

Results

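The 134 families described here are the ERVK endogenous retroviruses of the mouse other than IAP. They were taken by name from the deposited transposon counts: every entry classed as an LTR element of the ERVK group whose family name does not begin with IAP. Each family has a sense and an antisense entry, which gives 268 of the 1268 entries in each of 2 tables, one for uniquely and one for multiply mapped reads. The IAP entries left out number 32. Of the 134 families, 25 are internal parts and 109 are LTRs by name. The largest groups of names are RLTR (67 families outside RLTR9 and RLTR10), RMER (31), MMERVK10 with RLTR10 (9) and RLTR9 (8), and there are 5 ETn and MusD families.

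ERVK elements are class II endogenous retroviruses, copies of past retroviral insertions related to betaretroviruses. A complete copy has an internal part with gag, pro and pol reading frames between a pair of LTRs, which hold the promoter and the polyadenylation signal, while many LTRs now stand alone. ETn elements have lost the retroviral genes and are mobilised by their relative MusD, and MMERVK10C is an autonomous family whose LTRs are annotated as RLTR10. In the germ line such elements are held down by DNA methylation, by histone H3 lysine 9 methylation that KRAB zinc finger proteins direct, and by piRNAs bound to PIWI proteins.

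The germ cell protein RNF17 carries Tudor domains, modules that bind methylated arginines of PIWI proteins, and spermatogenesis in males lacking it stops at the round spermatid stage. The series compares testes of C57BL/6 mice of 6 weeks labelled heterozygous or homozygous for RNF17, and RNA immunoprecipitated (IP) from lysates of such testes with the RNF17 antibody 1774. The 4 groups are heterozygous testis, homozygous testis, heterozygous RNF17 IP and homozygous RNF17 IP, with 2 libraries each. The labels do not describe the allele, name no wild type group, and leave unsaid whether both libraries of a group are from different animals. The p-values therefore reflect no more than the scatter of these libraries, and that scatter may be technical. A pull-down with another antibody was not analysed here.

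Values are reads per 1000000 genic reads after TMM scaling of the gene table (RPM, written rpm), and library values are given in the order of replicates 1 and 2. Because they are not corrected for element length or copy number, a family with more reads is not thereby one with higher expression, and changes are compared between libraries. Genic reads ranged from 5661754 to 50575649 per library. Uniquely mapped transposon reads came to 19.3 and 6.30 per 100 genic reads in the heterozygous testes, 18.8 and 8.01 in the homozygous testes, 14.6 and 11.8 in the heterozygous IPs and 6.89 and 6.97 in the homozygous IPs. The testis replicates thus differed from each other in their transposon share by more than the genotypes did. In multiply mapped transposon reads, replicate 1 exceeded replicate 2 in both testis groups and in the heterozygous IP. Per 100 genic reads these came to 7.54 and 2.07 in the heterozygous testes and 7.10 and 1.19 in the homozygous testes. The heterozygous IPs had 6.15 and 1.49, and the homozygous IPs 0.670 and 0.635. The Rnf17 transcript was at 518 and 532 rpm in the heterozygous testes, 50.1 and 105 in the homozygous testes, 1273 and 1173 in the heterozygous IPs and 209 and 380 in the homozygous IPs, lower in the homozygous libraries throughout. In these bulk samples, fewer cells of a type and less RNA per cell cannot be told apart.

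Summed over the 268 entries, uniquely mapped ERVK reads came to 19909 and 9034 rpm in the heterozygous testes and 14563 and 10059 in the homozygous testes. They came to 14511 and 15918 rpm in the heterozygous IPs and 10560 and 12486 in the homozygous IPs. The testis groups overlapped, and the heterozygous IPs both lay above the homozygous IPs. Multiply mapped reads summed to 5767 and 2938 rpm in the heterozygous testes, 3805 and 2570 in the homozygous testes, 6604 and 3457 in the heterozygous IPs and 1839 and 2256 in the homozygous IPs. The homozygous IPs were the lowest libraries in this table.

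**Figure D1:**
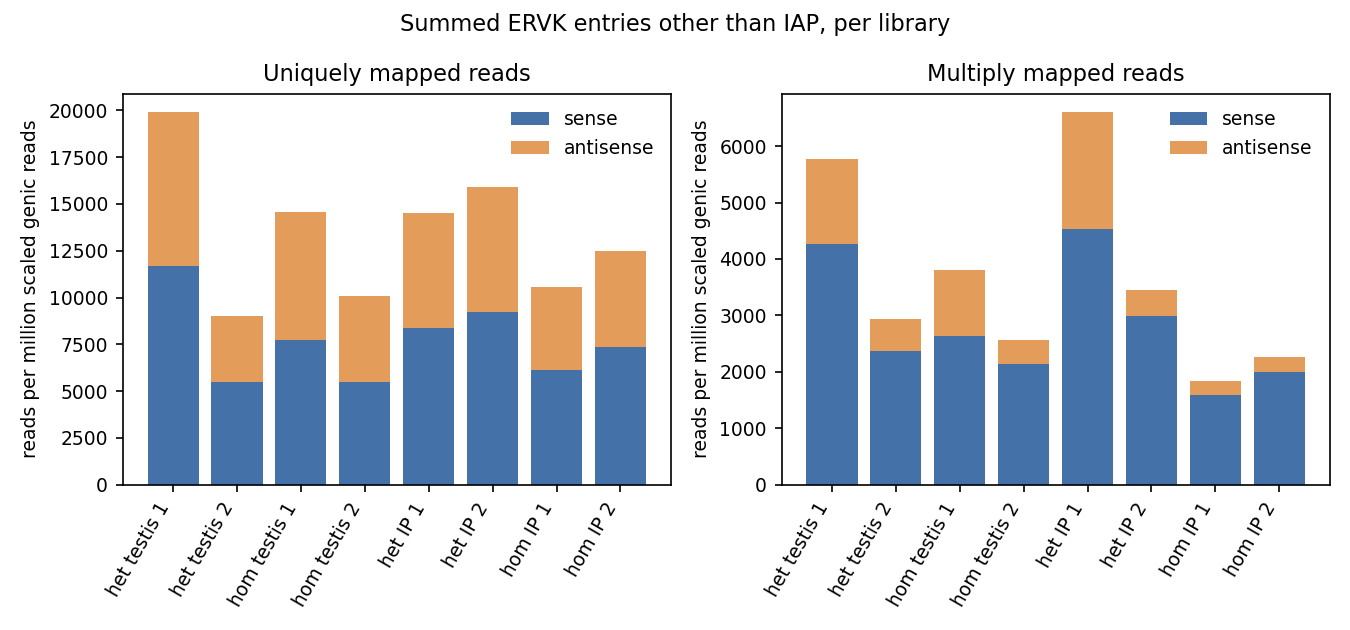
Summed reads of the 268 ERVK entries in each of the 8 libraries, in reads per 1000000 scaled genic reads, stacked by orientation, for uniquely (left) and multiply mapped reads (right; its axis has another range). In the left panel the heterozygous testis libraries differ most within a group (19909 and 9034), and in both panels the heterozygous IPs exceed the homozygous IPs.

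A few entries held much of the signal. The 5 entries with the highest mean took 24.3% of the mean uniquely mapped ERVK reads and 43.0% of the multiply mapped ones. Among uniquely mapped reads the median entry had a mean of 20.8 rpm, 186 of 268 had at least 10 rpm, and 6 had no read in any library (9 among multiply mapped reads). The LTR RMER6A in sense was at 1731 and 328 rpm in the heterozygous testes, 1196 and 364 in the homozygous testes, 1071 and 1335 in the heterozygous IPs and 1299 and 1695 in the homozygous IPs. The LTR RMER17C in antisense was at 810.0 and 418 rpm in the heterozygous testes, 1090.5 and 532 in the homozygous testes, 1200.0 and 1348 in the heterozygous IPs and 1527 and 1972 in the homozygous IPs. In both entries replicate 1 of each testis group was the higher one, as in the summed reads, and in RMER17C both homozygous IPs lay above both heterozygous IPs, while in RMER6A the IPs overlapped.

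The others among the 5 entries with the most reads in each orientation were RMER6C, RLTR15, MurERV4-int and RLTR45-int in sense, and RMER17B, RMER17A2, RMER17A and RMER17D2 in antisense. Their means over the 8 libraries ranged from 139.5 rpm for RMER17D2 antisense to 371 rpm for RMER6C sense. Multiply mapped reads made up 21.8% of all ERVK reads, 37.4% in internal parts and 15.2% in LTRs. The share was 44.6% in MMERVK10 with RLTR10, 38.2% in ETn and MusD, and 8.40% in MYSERV. These shares are of reads pooled over the 8 libraries, so that the deepest libraries weigh most.

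The question of the testis comparison is whether ERVK transcripts differ when both copies of the gene are affected. No ERVK entry passed the test. With uniquely mapped reads, edgeR's quasi-likelihood test called 0 of 254 tested entries at a Benjamini-Hochberg adjusted p under 0.05, DESeq2 also called 0, and 8 had an unadjusted p under 0.05. The background was 0% of the 1074 transposon entries tested in each direction. The median log2 fold change, homozygous over heterozygous, was -0.17 for ERVK and -0.24 for all transposon entries. Groups did not overlap for 37 entries that were lower in the homozygous testes (14.6%, against 13.8% of all transposon entries) and for 5 that were higher (1.97% against 3.26%), shares close to the background. Without replicate 1 of heterozygous testis, which leaves that genotype with a single library assumed to vary like the other group, edgeR called 7 lower entries. Multiply mapped reads gave 0 calls among 222 entries by both tools (background 0%), with 0 at an unadjusted p under 0.05, and without overlap 27 lower (12.2%, against 13.6%) and 1 higher (0.45%, against 1.06%).

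The 3 largest falls in the testis were sense entries of LTRs. They were chosen among entries with a mean of at least 5 rpm and no overlap between the genotypes. RMER17D was at 12.6 and 35.1 rpm in the heterozygous and 6.07 and 2.65 in the homozygous testes, a log2 fold change of -2.47 ± 0.88 (SE; edgeR adjusted p = 0.995). RMER17A was at 29.3 and 85.6 rpm in the heterozygous and 15.99 and 5.61 in the homozygous testes (log2 fold change -2.42 ± 0.87). RLTR8 was at 6.46 and 21.3 rpm in the heterozygous and 3.24 and 1.89 in the homozygous testes (log2 fold change -2.46 ± 0.92). By that choice both homozygous libraries lay below both heterozygous ones in all of them, which is no further support. The heterozygous libraries also differed from each other, replicate 2 being the higher. The same 3 are the only ERVK entries among the 734 features of the authors' deposited table of genotype differences. There the authors' deposited table gives log2 fold changes of -1.77 for RMER17D, -1.71 for RMER17A and -1.75 for RLTR8, with the authors' adjusted p-values of 0.0457, 0.0648 and 0.0546. The means it lists have homozygous to heterozygous ratios of 0.172, 0.177 and 0.172 in that order. Its fold changes are smaller falls than these ratios give, so they are not the same measure as edgeR's. It covers the same testis groups and is not independent evidence.

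Replicate 2 of heterozygous testis also had the highest summed level of 10 elongating spermatid markers, 21751 rpm beside 4348 in replicate 1 and 275 and 251 in the homozygous testes, with none of the markers at 0 in any library. Summed round spermatid markers were at 1581 and 4723 rpm in the heterozygous and 563 and 1008 in the homozygous testes, and 10 pachytene spermatocyte markers were at 5816 and 9591 against 3568 and 9069. Sertoli cell markers (9 of 10 in the table) summed to 416 and 467 rpm in the heterozygous and 824 and 1090 rpm in the homozygous testes. Much of that sum was 1 gene, Clu, at 128 and 333 against 376 and 881 rpm, while Sox9 was at 48.8 and 20.3 against 46.3 and 20.2 rpm. The part of cell composition in the ERVK values was not tested.

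Among entries with a mean of at least 5 rpm, the 3 largest rises without overlap did not pass the test. RLTR9A antisense was at 32.5 and 23.3 rpm in the heterozygous and 44.3 and 73.1 in the homozygous testes. RLTR45 antisense was at 36.1 and 29.4 rpm in the heterozygous and 57.8 and 62.6 in the homozygous testes. RLTR10B sense, an LTR known for enhancer activity in male meiosis, was at 19.6 and 13.7 rpm against 21.7 and 25.4 rpm. Their log2 fold changes were 1.08, 0.88 and 0.50, none of which passed the test.

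Most of the ETn, MMERVK10C and MMTV internal parts overlapped between the genotypes in the testis. MMERVK10C-int in sense was at 248 and 104 rpm in the heterozygous and 156 and 137 in the homozygous testes. ETnERV2-int in sense was at 267 and 130.1 rpm in the heterozygous and 127 and 121 in the homozygous testes, and both homozygous values were just below the lower heterozygous one. ETnERV3-int in sense was at 133 and 49.4 rpm against 79.7 and 55.2 rpm. MMETn-int in sense was at 27.2 and 15.2 rpm against 17.6 and 19.99 rpm, and ETnERV-int in sense at 18.7 and 7.91 rpm against 17.001 and 15.9 rpm, again with overlap. MMTV-int, the internal part of the mouse mammary tumour virus, had few reads, at 4.93 and 1.83 rpm against 5.36 and 2.81 rpm in sense.

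**Figure D2:**
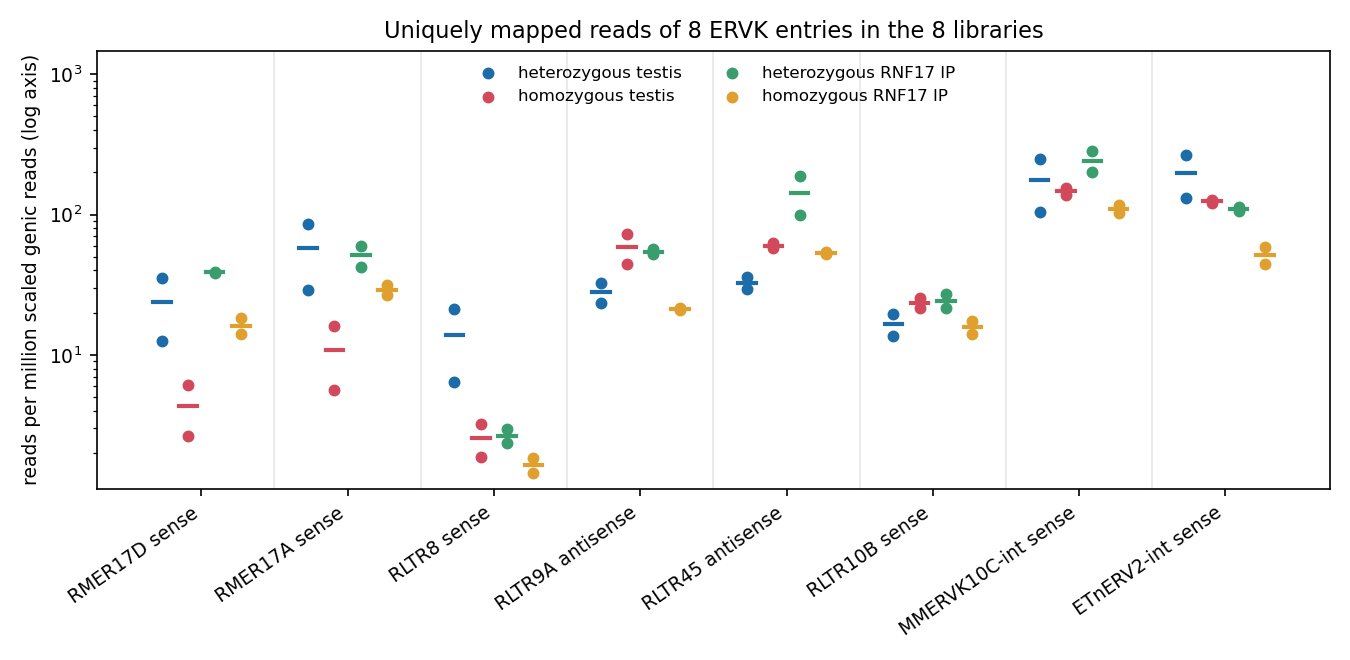
Uniquely mapped reads of 8 ERVK entries in the 8 libraries, on a log axis in reads per 1000000 scaled genic reads; points are libraries and bars are means of 2. RMER17D, RMER17A and RLTR8 in sense were chosen as falls without overlap, with both homozygous testes below both heterozygous testes. MMERVK10C-int sense overlaps between the testis genotypes.

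The comparison of the 2 IPs asks which RNA the RNF17 antibody recovers to a different extent in the genotypes. Uniquely mapped ERVK reads were mostly higher in the heterozygous IP, and so was the whole transposon pool. Of 247 tested entries, edgeR called 140 higher (56.7%) and 4 lower (1.62%). Of all 974 transposon entries tested, 55.5% were called higher and 2.16% lower, so the ERVK shares were close to the background. DESeq2 called 113 higher and 4 lower of 256, where 41.3% of all entries were higher and 1.47% lower. Both heterozygous IPs lay above both homozygous IPs for 188 ERVK entries (76.1%, against 75.9% of all) and below them for 11 (4.45% against 6.06%). The median log2 fold change was 0.90 for ERVK and 0.87 for all transposon entries. TMM scaling within the transposon table took the median of all entries to 0.08, and then 38 ERVK entries were called higher and 42 lower. The share of all entries called under that scaling is not given here, so these counts do not set ERVK apart. With the spread estimated over all 8 libraries 12 ERVK entries were called, all higher. Leaving out each library in turn gave between 105 and 136 calls.

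Calls were most frequent among antisense entries of internal parts. Of 24 antisense entries of internal parts, 19 were called higher and none lower, with a median log2 fold change of 1.72. Of 25 sense entries of internal parts, 14 were higher and 1 was lower, with a median of 0.71. Among LTRs, 57 of 100 antisense and 50 of 98 sense entries were higher, with medians of 0.92 and 0.67. The internal parts of other LTR families, outside ERVK, had similar counts: 39 of 55 antisense entries were higher (median 1.53) and 30 of 58 sense entries (median 0.76). With TMM scaling within the transposon table, 13 of the 24 ERVK internal antisense entries were called higher and 3 lower, with a median of 0.94 against 0.08 for all entries. No test of the difference between these subsets was run.

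**Figure D3:**
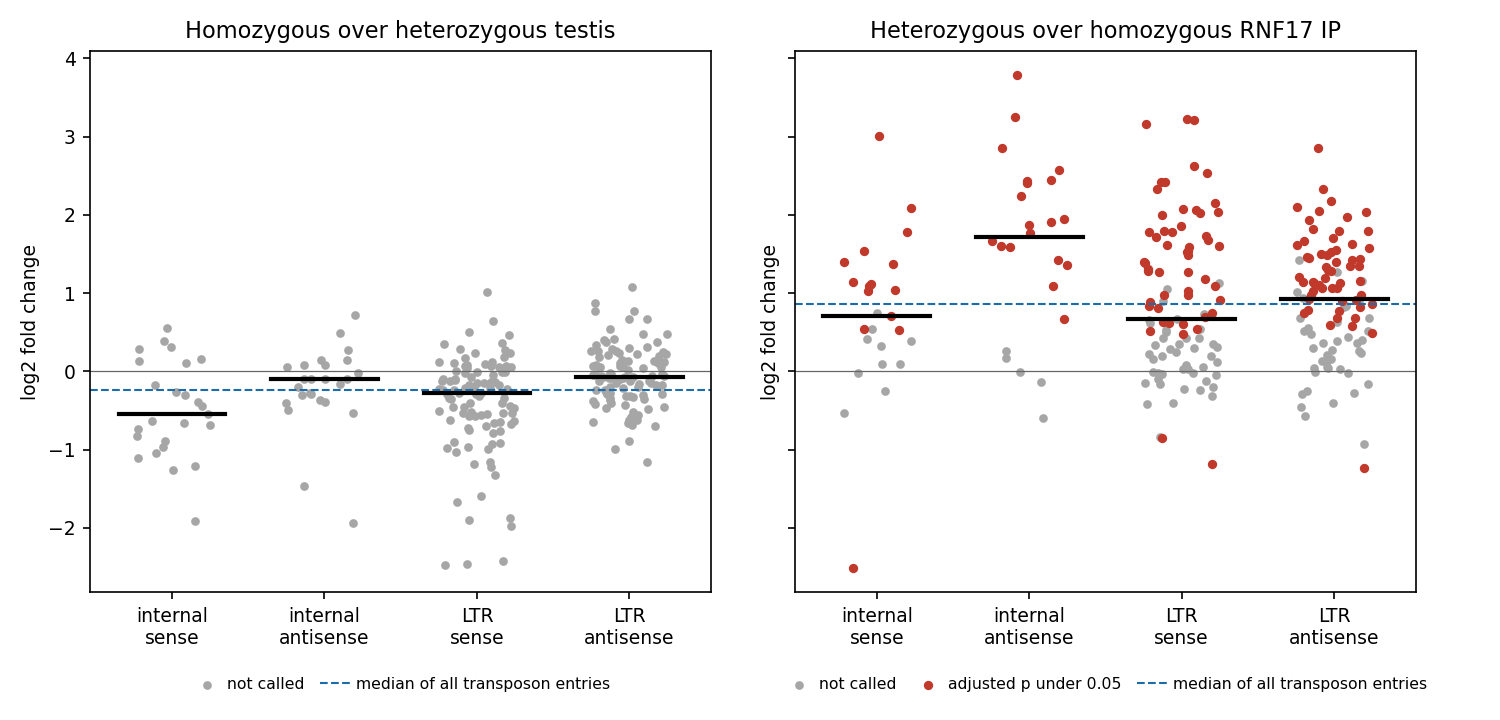
Log2 fold changes of ERVK entries from uniquely mapped reads, by part and orientation, for homozygous over heterozygous testis (left) and heterozygous over homozygous IP (right). Points are entries, red where edgeR's adjusted p is under 0.05, black bars are medians and the dashed line is the median of all transposon entries; internal antisense entries in the right panel have a median of 1.72 against 0.87 for all entries.

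Of the 10 entries with the smallest p-values, 5 were antisense entries of internal parts and 5 were LTR entries, and the first was RMER3D-int antisense. RMER3D-int antisense was at 105 and 88.6 rpm in the heterozygous and 10.9 and 9.52 in the homozygous IPs, means of 97.04 ± 11.9 and 10.2 ± 0.976 (SD, n = 2). Its log2 fold change was 3.25 ± 0.21 (edgeR adjusted p = 4.36e-05). Its testis values, 83.9 and 22.2 rpm in the heterozygous and 60.7 and 56.7 in the homozygous testes, lay below both heterozygous IPs and above both homozygous IPs.

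MMERVK10C-int antisense followed the same order. It was at 123 and 151 rpm in the heterozygous IPs, 23.3 and 22.7 in the homozygous IPs, 90.7 and 72.6 in the heterozygous testes and 69.9 and 111 in the homozygous testes. The log2 fold change between the IPs was 2.57 ± 0.20 (edgeR adjusted p = 7.47e-05). Both heterozygous IPs were above all testis libraries and both homozygous IPs below them. In sense, MMERVK10C-int was at 202 and 282 rpm in the heterozygous and 103 and 117 in the homozygous IPs, a log2 fold change of 1.14 ± 0.20 (edgeR adjusted p = 0.00157). The LTR RLTR10C rose by 1.18 in sense and 1.49 in antisense on the log2 scale (edgeR adjusted p = 0.00579 and 0.0028).

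All 10 ETn and MusD entries had log2 fold changes above 0. Of these, 8 were called higher, beside 55.5% of all transposon entries, and the difference was not tested. With TMM scaling within the transposon table, however, MMETn-int antisense (-0.11), ETnERV3-int sense (-0.25) and RLTRETN_Mm antisense (-0.39) fell below 0. ETnERV2-int antisense was at 86.9 and 101 rpm in the heterozygous and 26.6 and 25.01 in the homozygous IPs (log2 fold change 1.87 ± 0.19; edgeR adjusted p = 0.000151). Its sense entry was at 107 and 113 and 44.7 and 58.6 rpm (log2 fold change 1.09 ± 0.19). ETnERV-int antisense was at 11.7 and 12.8 and 1.66 and 0.161 rpm, with few reads behind the homozygous values. The entries that did not pass were ETnERV3-int sense, at 28.4 and 33.5 against 19.2 and 23.2 rpm, and RLTRETN_Mm antisense, at 29.2 and 41.7 against 18.1 and 35.5 rpm. In the heterozygous IPs the ETnERV2-int and ETnERV3-int sense entries lay below both of their heterozygous testis values.

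By name, all 6 MYSERV entries were called higher, 12 of 16 RLTR9, 34 of 54 RMER, 10 of 18 MMERVK10 and RLTR10, 5 of 8 BGLII and 57 of 123 other RLTR entries (2 lower), and 8 of 12 entries of other names (2 lower). These counts stand beside 55.5% higher among all transposon entries, and none was tested against it. MYSERV16_I-int antisense was at 69.2 and 75.3 rpm in the heterozygous and 21.1 and 16.5 in the homozygous IPs (log2 fold change 1.95 ± 0.21). MurERV4_19-int antisense was at 39.9 and 40.8 and 7.57 and 3.71 rpm (log2 fold change 2.85 ± 0.32). Both were named for their small p-values in this comparison, so the distance between their groups is no further support. RLTR17 antisense rose by 2.34 and RLTR9E sense by 2.33 on the log2 scale. All 10 entries with the smallest p-values were still called higher with TMM scaling within the transposon table, and 4 of them with the spread taken over all 8 libraries (RMER3D-int, MMERVK10C-int and MurERV4_19-int antisense and RLTR45 sense).

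**Figure D4:**
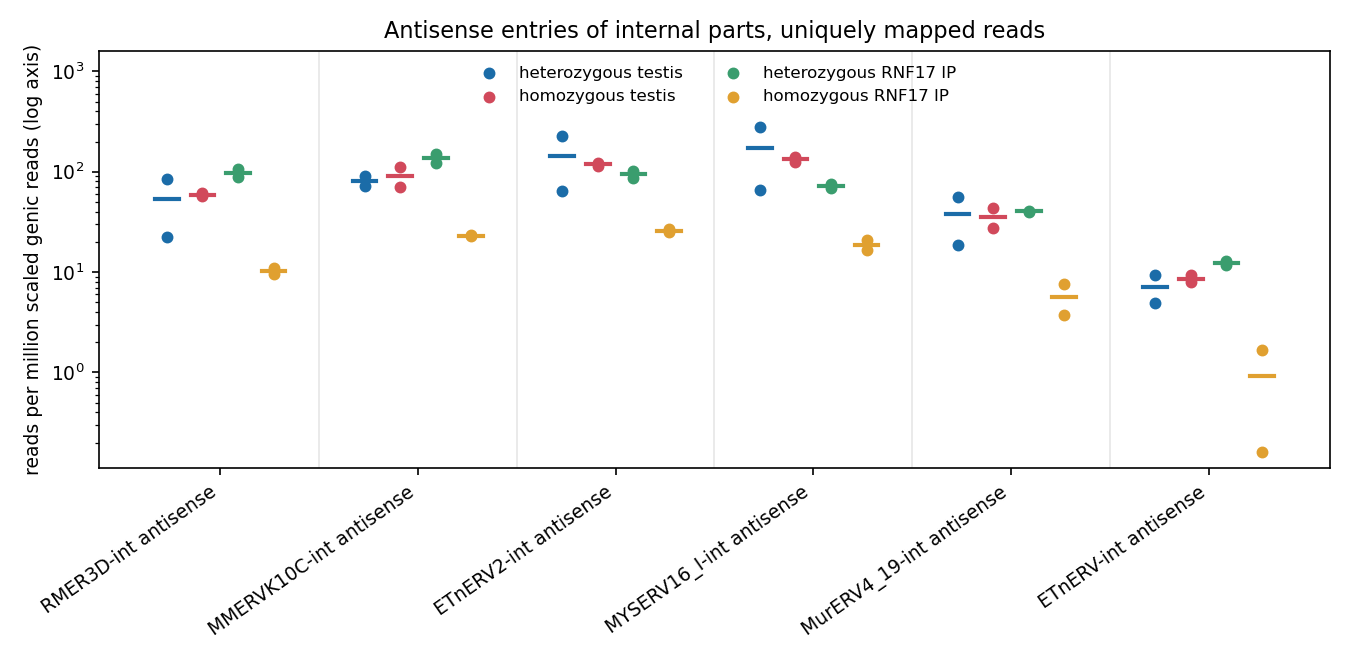
Uniquely mapped antisense reads of 6 internal parts in the 8 libraries, on a log axis in reads per 1000000 scaled genic reads; points are libraries and bars are means of 2. In each of the 6, both homozygous IP libraries are the lowest of the 8.

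Some sense entries of LTRs were also called higher in the heterozygous than in the homozygous IPs. RMER17A2 sense was at 165 and 155 rpm in the heterozygous IPs, 46.4 and 46.5 in the homozygous IPs, 19.05 and 38.3 in the heterozygous testes and 14.4 and 35.001 in the homozygous testes. RMER17D2 sense was at 89.4 and 50.6, 17.2 and 23.1, 10.2 and 11.2 and 8.70 and 4.78 rpm in the same order. RLTR45 sense was at 30.8 and 34.1, 3.33 and 3.87, 6.12 and 9.87 and 5.67 and 4.28 rpm. In all of them the heterozygous IPs were the highest libraries without overlap. Between the IPs their log2 fold changes were 1.79 ± 0.17, 1.80 ± 0.29 and 3.16 ± 0.27 (edgeR adjusted p = 0.000151, 0.00108 and 8.27e-05). RMER17C sense was at 130.2 and 123 and 42.9 and 34.5 rpm in the IPs (log2 fold change 1.71 ± 0.19), while its antisense entry, at 1200.0 and 1348 and 1527 and 1972 rpm, did not pass (log2 fold change -0.46 ± 0.27).

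Of the 4 entries called lower in the heterozygous IP, MMTV-int sense belongs to the fixed set of names. RLTR44D and RLTR44E sense were named by the rule in other comparisons, and RNLTR23 antisense was named after its values were seen. MMTV-int sense was at 0.661 and 0.625 rpm in the heterozygous and 2.96 and 4.52 in the homozygous IPs (log2 fold change -2.51 ± 0.51). RLTR44D sense was at 9.35 and 16.4 and 19.8 and 37.6 rpm, RLTR44E sense at 15.95 and 25.3 and 37.7 and 36.1 rpm, and RNLTR23 antisense at 8.50 and 11.9 and 21.8 and 25.7 rpm. None of these groups overlapped. The marker sums moved with this comparison too: elongating spermatid markers were at 6967 and 6458 rpm in the heterozygous and 274 and 305 rpm in the homozygous IPs, with none at 0, and Sertoli cell markers at 391 and 367 against 810 and 505 rpm. Much of the Sertoli cell sum was again Clu, at 276 and 267 against 639 and 385 rpm. Sox9 overlapped, at 14.1 and 10.5 against 17.6 and 11.0 rpm. The part of the marker sums in the ERVK values was not tested.

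Each IP was then set against the testis libraries of its genotype. The heterozygous IP gave no edgeR call among 254 ERVK entries (background 0.097% in each direction of 1031 entries), with 14 at an unadjusted p under 0.05 and a median log2 fold change of -0.03 against -0.34 for all entries. DESeq2 called 1 (background 0.0819% higher and 0.164% lower), RMER17D2 sense (log2 fold change 2.71 ± 0.80 and edgeR adjusted p = 0.173; DESeq2 adjusted p = 0.0252). Groups did not overlap for 52 ERVK entries that were higher in the IP (20.5%, against 14.3% of all transposon entries) and 27 that were lower (10.6% against 17.1%). The outcome rested on the heterozygous testis libraries. Without replicate 1 the median of all transposon entries was 0.48. ERVK internal and LTR entries, split by orientation, then had medians from -0.15 to 0.75. Without replicate 2 the median of all entries was -0.78, and those ERVK medians ran from -1.03 to -0.15. Each of these fits had a single testis library assumed to vary like the IPs.

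Among entries with a mean of at least 5 rpm and no overlap, the largest rises in the heterozygous IP over testis were RMER17D2 and RMER17A2 sense, given above, and RLTR45 antisense, at 98.8 and 188 rpm in the IPs and 36.1 and 29.4 in testis (log2 fold change 2.13 ± 0.81). The largest falls under the same limits were RLTR8 sense, at 2.36 and 2.97 against 6.46 and 21.3 rpm, RLTR18-int antisense, at 13.6 and 16.9 against 40.1 and 93.3 rpm, and ETnERV3-int sense, at 28.4 and 33.5 against 133 and 49.4 rpm. None of these passed edgeR's test. The lack of overlap between IP and testis in these 6 follows from how they were chosen.

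In the homozygous IP against homozygous testis, ERVK entries were mostly lower in the IP, as were transposons in general. edgeR called 70 of 249 lower (28.1%) and 8 higher (3.21%), where all 1000 transposon entries had 34.2% lower and 1.5% higher. DESeq2 called 48 of 257 lower and 5 higher (background 21.1% and 1.13%). Groups did not overlap for 139 lower entries (55.8%, against 67.7% of all) and 25 higher ones (10%, against 5.4%). The median log2 fold change was -0.66 for ERVK and -0.89 for all entries. With TMM factors taken from the transposon table itself, the median of all entries was -0.13, and 15 ERVK calls were lower and 31 higher. The share of all entries called under that scaling is not given here either. The number of calls fell when either IP library was left out. The median of all entries was then -0.90 without replicate 2 and -0.92 without replicate 1 of the homozygous IP. Each of these fits had a single IP library assumed to vary like the testes. With the spread taken over all 8 libraries edgeR called 0. Without replicate 2 of homozygous testis it called 13 higher and 109 lower. These IP libraries are the same ones as in the comparison of the IPs, so the counts of both comparisons are not independent.

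More antisense than sense entries were called lower. Of 126 antisense ERVK entries, 56 were called lower and none higher, and of 123 sense entries 14 were lower and 8 higher. Transposon entries outside this set had 195 of 388 antisense entries lower and 77 of 363 sense entries lower. Antisense entries of ERVK internal parts were lower in 18 of 25 cases, with a median log2 fold change of -2.16, and those of internal parts of other LTR families in 42 of 60, with a median of -1.67. Sense entries of ERVK internal parts were lower in 6 of 25, with a median of -0.74. With that scaling, 12 of the 25 internal antisense entries were called lower and 3 higher, with a median of -1.45 against -0.13 for all entries. Without replicate 2 of the homozygous IP none of the 25 was called, with a median of -1.97, and with the spread taken over all 8 libraries none was called, with a median of -2.16.

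Of the 10 entries with the smallest p-values in this comparison, 9 were internal antisense entries and all 9 were lower in the IP. MYSERV16_I-int antisense was at 21.1 and 16.5 rpm in the IPs and 141 and 125 in testis, a log2 fold change of -2.83 ± 0.43 (edgeR adjusted p = 2.44e-06). RLTR10-int antisense, from the LTR family of MMERVK10C, was at 2.22 and 1.45 against 18.5 and 16.1 rpm, with a log2 fold change of -3.24 ± 0.58. MurERV4-int antisense was at 17.9 and 8.23 against 82.2 and 65.9 rpm, a fall of the same order. The others, with falls between -2.16 and -2.65 on the log2 scale, were MYSERV6-int, MYSERV-int, RMER3D-int, RMER16-int, ETnERV2-int and MurERV4_19-int. ETn and MusD entries were called lower in 6 of 10 cases, beside 34.2% of all transposon entries, and the difference was not tested. Among them were ETnERV3-int sense at 19.2 and 23.2 against 79.7 and 55.2 rpm and MMETn-int antisense at 11.6 and 11.8 against 36.7 and 35.2 rpm.

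**Figure D5:**
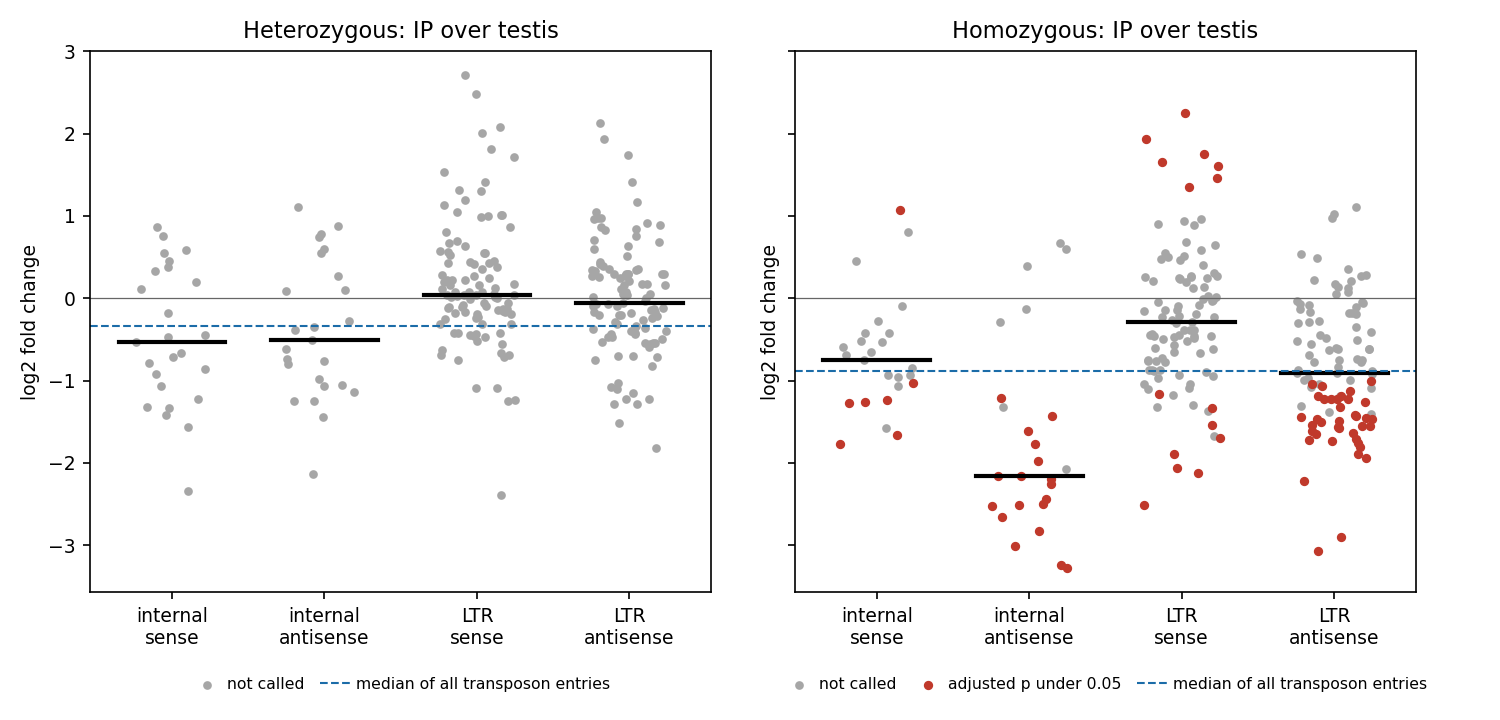
Log2 fold changes of ERVK entries from uniquely mapped reads, IP over testis, by part and orientation, in heterozygotes (left) and homozygotes (right). Points are entries, red where edgeR's adjusted p is under 0.05, black bars are medians and the dashed line is the median of all transposon entries; internal antisense entries have a median of -0.51 in heterozygotes and -2.16 in homozygotes.

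All 8 entries called higher in the homozygous IP than in the homozygous testes were sense entries. They were RLTR44C, RLTR44D, RLTR44E and RLTR44-int, RMER17A, RMER17D and RMER17D2, and RLTR13B2. Of these, RLTR44D follows the naming rule in this comparison. RLTR44E, RMER17A, RMER17D and RMER17D2 follow it in other comparisons, and the rest were named after their values were seen. RLTR44D sense was at 19.8 and 37.6 rpm in the IPs and 6.27 and 5.83 in testis (log2 fold change 2.25 ± 0.46; edgeR adjusted p = 0.000114). RMER17D sense was at 14.04 and 18.2 rpm in the IPs and 6.07 and 2.65 in testis (log2 fold change 1.93 ± 0.52). RMER17D sense was in turn higher in the heterozygous IP, at 39.3 and 38.6 rpm. Other sense entries of these names did not pass, among them RMER17A2, RMER17B, RMER17C, RLTR44A and RLTR44B, and without replicate 2 of the homozygous IP none of the 8 was called.

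The IP to testis ratio was compared between the genotypes in a fit over all 8 libraries. edgeR called 0 of 254 ERVK entries (background 0% of 1060), with 28 at an unadjusted p under 0.05 and a smallest edgeR adjusted p of 0.205, for RMER3D-int antisense. The median of the ratio difference, heterozygous minus homozygous, was 0.67 for ERVK and 0.61 for all entries. DESeq2 called 3 antisense entries of internal parts (background 1.17% higher and 0.0978% lower among 1023 entries), with log2 differences from edgeR of 3.40 ± 0.86 for RMER3D-int, 4.05 ± 1.07 for ETnERV-int and 2.72 ± 0.72 for MMERVK10C-int. ERVK internal antisense entries had a median difference of 1.57 and internal sense entries one of 0.21. In internal parts of other LTR families these medians were 1.28 and 0.36, and in IAP entries 2.08 and 0.84. Over all transposon entries they were 0.87 in antisense and 0.36 in sense, so the split was not particular to ERVK. RLTR10-int antisense had a difference of 2.97 ± 0.98. Among entries with a mean of at least 5 rpm and no overlap of the groups' ratios, the largest differences in the other direction were -2.53 ± 0.76 for RLTR18-int antisense, -2.17 ± 0.69 for RLTR44E sense and -1.58 ± 0.76 for RMER6-int sense, none of which passed. Without replicate 1 of heterozygous testis, 100 entries were called with a higher and 9 with a lower ratio in heterozygotes.

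The sense share of the reads expresses the same values within a library, where the scaling cancels. In internal parts, 59.9% and 64.0% of uniquely mapped ERVK reads were sense in the heterozygous testes, 55.6% and 59.3% in the homozygous testes, 60.6% and 63.3% in the heterozygous IPs and 69.0% and 72.9% in the homozygous IPs. Both homozygous IPs were above the other 6 libraries. In LTRs the shares were 58.2% and 59.7%, 52.4% and 52.8%, 56.9% and 56.7%, and 56.0% and 56.6% in the same order, with homozygous testis lowest. For IAP entries the sense share was 34.6% and 38.8% in heterozygous and 55.1% and 59.3% in the homozygous IPs.

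Per family, over families with at least 20 reads in each library compared, the sense share was lower in both heterozygous than in both homozygous IPs for 58 of 123 ERVK families (47.2%, against 42.7% of 323 other families). It was higher in 43 (35%, against 28.5%). Among ERVK internal parts it was lower in 16 of 24 and higher in 6. Among ERVK LTRs it was lower in 42 of 99 and higher in 37. Internal parts of other families were not counted separately. Against homozygous testis it was higher in the homozygous IP for 71 of 124 families (57.3%, against 53.7% of 324) and lower for 20 (16.1%, against 15.7%). Among ERVK internal parts it was higher for 20 of 25 and lower for 5, and among ERVK LTRs higher for 51 of 99 and lower for 15. MMERVK10C-int had sense shares of 62.2% and 65.2% in the heterozygous and 81.5% and 83.7% in the homozygous IPs, against 69.0% and 55.3% in the homozygous testes.

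Multiply mapped reads gave the same order of groups with wider spread. In the comparison of the IPs edgeR called 0 of 107 ERVK entries (background 0% of 404) and DESeq2 1 of 196 (background 1.47% higher, 0% lower), with 23 at an unadjusted p under 0.05 and a median log2 fold change of 2.14 against 2.72 for all entries. Groups did not overlap for 77 higher entries (72%, against 76.5%) and 1 lower (0.935%, against 1.49%). The number of edgeR calls depended on which heterozygous IP library was left out, replicate 1 being the one with more of these reads. Heterozygous IP against heterozygous testis gave 0 calls among 219 entries by edgeR (background 0.134% higher and 0% lower) and 0 by DESeq2 (0.0835% in each direction), with 0 at an unadjusted p under 0.05. Without overlap 8 were higher (3.65%, against 3.34%) and 9 lower (4.11%, against 4.01%). Homozygous IP against homozygous testis gave 1 lower call among 129 (background 11%), MYSERV16_I-int antisense, at 0.554 and 0.484 against 12.6 and 7.90 rpm, a log2 fold change of -4.29 ± 1.38 (edgeR adjusted p = 0.0454). Few reads lie behind those 2 IP values. DESeq2 called 1 of 173 (background 7.41% lower), and without overlap 83 entries were lower (64.3%, against 69.6%) and 3 higher (2.33%, against 2.25%). Without either homozygous IP library that count was 0, and without replicate 2 of homozygous testis it was 127 lower and 1 higher. The ratio comparison gave 0 calls among 219 by edgeR (background 0%), with 4 at an unadjusted p under 0.05, and 0 by DESeq2 (background 0.668% higher).

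The entries with the most multiply mapped reads were all sense entries, 3 of them internal parts besides MMERVK10C-int. RMER6A sense was at 1078 and 211 rpm in the heterozygous testes, 240.1 and 73.7 in the homozygous testes, 890.1 and 941 in the heterozygous IPs and 271 and 343 in the homozygous IPs. RLTR19-int sense was at 48.8 and 378, 86.2 and 235, 245 and 334 and 444 and 628 rpm in that order, highest in the homozygous IPs. MurERV4-int sense was at 192 and 119.7, 78.5 and 192, 435 and 507 and 100.3 and 209.7 rpm, highest in the heterozygous IPs. RLTR45-int sense was lower in all IPs (179 and 183 and 161 and 162 rpm) than in any testis library (589.7 and 327 and 516 and 570.4 rpm). MMERVK10C-int sense was at 259 and 272 rpm in the heterozygous and 117 and 112 in the homozygous IPs, close to its uniquely mapped values and in the same order.

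Other entries chosen by the naming rule in multiply mapped reads showed how far a single library could carry a fold change. RMER19B sense was at 71.6 and 2.81 rpm in the heterozygous and 0.185 and 0.807 in the homozygous IPs, and RMER3D-int sense at 42.01 and 5.94 and 0.739 and 0.968. In both, replicate 1 of the heterozygous IP was far above replicate 2, and the log2 fold changes of 6.16 ± 2.15 and 4.78 ± 1.54 did not pass the test. RLTR19-int sense went the other way (-0.89 ± 0.37), also without passing. In the testis, RMER13B sense was at 3.06 and 20.1 rpm in heterozygotes and 2.43 and 0.422 in homozygotes, and MurERV4_19-int sense at 19.6 and 12.9 and 6.48 and 3.32 rpm. ETnERV3-int sense was at 23.5 and 12.7 rpm in the heterozygous IPs and 66.8 and 32.6 in the testes of that genotype, the same direction as in uniquely mapped reads.

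Genes linked to retrotransposon control in mouse germ cells and embryos were read from a list of 58, of which 55 are in the gene table. The list is not specific to ERVK and includes Rnf17. In the testis edgeR called 0 of 55 (background 0% of 14236 genes), with 2 at an unadjusted p under 0.05, and DESeq2 called 1, Rnf17 itself. Between the IPs edgeR called 6 of 54 higher in the heterozygous IP (11.1%, against 16.8% of genes) and 5 lower (9.26% against 14.7%). The higher ones were Rnf17, with a log2 fold change of 2.05 ± 0.27 (SE), the piRNA pathway genes Gtsf1 (2.36 ± 0.34), Piwil1 (1.09 ± 0.20) and Gpat2 (1.12 ± 0.23), the heterochromatin protein gene Cbx5 (1.11 ± 0.19) and the DNA methylation cofactor gene Dnmt3l (1.76 ± 0.53). The lower ones encode chromatin proteins: Hells (-1.03 ± 0.23), Atrx (-0.87 ± 0.20), Ehmt1 (-0.99 ± 0.23), Atf7ip (-0.86 ± 0.23) and Daxx (-0.57 ± 0.18). These were named after their values were seen, apart from Rnf17. In each IP against its testis and in the ratio comparison, edgeR called 0 of these genes (background 0% in each direction for the heterozygous IP and the ratio, 1.02% higher and 1.28% lower for the homozygous IP), with 9, 7 and 3 at an unadjusted p under 0.05 for the heterozygous IP, the homozygous IP and the ratio. The gene with the smallest p in the heterozygous IP against testis and in the ratio was Gpat2, with log2 values of 2.32 and 2.25 (edgeR adjusted p = 0.214 and 0.41).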

How the data were processed

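Libraries of 8 samples were grouped by their titles into 4 groups of 2. Libraries were made from total RNA with not-so-random primers, per the labels' protocols. The programs STAR and DESeq and the genome build mm9 are named per the submitters' processing notes. Their versions and roles, the use of strand and the rule for multiply mapped reads were not given in the labels or headers. The 9 count tables the authors deposited hold read counts for genes and for transposon families by uniquely and multiply mapped reads; all 12 repeated columns were identical and 0 columns were left unmapped. The authors' deposited table of genotype differences gives a mean signal per genotype, a log2 fold change, its standard error (held as a score), and p-values, and was used only for the 3 entries named from it.

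Counts were scaled by genic reads with TMM factors of the gene table over all 8 libraries, so that a shift of the whole transposon pool is kept. Each comparison was tested on its own libraries with edgeR 4.0.16 (R 4.3.3; quasi-likelihood test, filterByExpr, Benjamini-Hochberg adjustment over all transposon entries tested, adjusted p under 0.05), and the ratio comparison on all 8. DESeq2 1.42.0 with size factors of the gene table was an alternative. The fit was also run on simulated counts with known changes, but its recovery is not given here, so the results with 0 calls do not exclude differences. The members and gene lists were chosen with earlier results of these data known. Named entries are the 5 with the highest mean per orientation, a fixed set of ETn, MMERVK10C and MMTV entries, up to 10 called entries with the smallest adjusted p, or, under 5 calls, up to 3 rises and 3 falls without overlap and a mean of at least 5 rpm. Of the fixed set, RMER17 and MMERVK10D3_I-int have no entry of that exact name. Consensus sequences and coordinates were not used here. Families share near-identical copies, so reads could be split between them, and without stated strand handling sense and antisense reads could be mixed.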

Additional observations from a re-analysis of the deposited data

Results flagged for a closer look

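The IP to testis ratio differed between the genotypes, by DESeq2's test of the difference itself, for 3 antisense entries in uniquely mapped reads. RMER3D-int antisense had a DESeq2 adjusted p of 0.021, ETnERV-int antisense one of 0.021 and MMERVK10C-int antisense one of 0.021. The ratio was higher in heterozygotes in all of them. These are 3 of 253 ERVK entries (1.19%), close to the share among all transposon entries (1.17% of 1023). edgeR's adjusted p for the same 3 was 0.205, 0.207 and 0.207, past no threshold. ETnERV-int antisense rests on 1.66 and 0.161 rpm in the homozygous IPs.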

How the results depend on the processing

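Uniquely mapped reads, heterozygous against homozygous IP, gave 140 and 4 calls (105 to 136 in all with 1 library left out), 80 with TMM within the transposon table and 12 with all 8 libraries in 1 fit. Heterozygous IP against testis gave 1 with DESeq2 and 0 to 115 leaving out 1 library. Homozygous IP against testis gave 46 with TMM within the transposon table, 0 with all 8 libraries in 1 fit and 0 to 122 leaving out 1 library. The testis comparison gave 0 to 7. The ratio gave 3 with total genic reads, 3 with DESeq2, 5 with the replicate block and 0 to 109 leaving out 1 library. For multiply mapped reads, the IPs gave 1 without a filter on low counts, 1 with DESeq2, 3 with the replicate block and 0 to 205 leaving out 1 library. Homozygous IP against testis there gave 0 with TMM of the gene table within the comparison, with TMM within the transposon table, without a filter, with all 8 libraries in 1 fit and with the crossed replicate block, and 0 to 128 leaving out 1 library, and the ratio 0 to 1. Control genes called numbered 1 (DESeq2), 3 (replicate block) and 0 to 2 (1 library left out) in the testis, 5 to 16 between the IPs, 2 (DESeq2) and 0 to 26 in the heterozygous IP against testis, and 3 (DESeq2), 2 (no filter), 2 (replicate block) and 0 to 14 in the homozygous one. Nothing in the labels pairs the replicate numbers. Same-numbered deviations correlated with r = 0.48 between the testes (0.61 for genes), so both testis genotypes shared a difference between replicates. Between the IPs r was 0.05, in heterozygotes 0.05 and in homozygotes -0.05 (-0.14 for genes, which prompted the crossed pairing, chosen after seeing the data). With 1 library left out of a group, the lone library was assumed to vary like the others.

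These log2 fold changes changed sign. Between the IPs, total genic reads gave 0.0083 for RMER6A sense, 0.20 for RLTR15 sense and 0.16 for RMER17B antisense. TMM within the transposon table gave -0.30 for RMER17A2, -0.31 for RMER17A, -0.72 for RMER17D2, -0.39 for RLTRETN_Mm and -0.11 for MMETn-int antisense, and -0.25 for ETnERV3-int sense. Leaving out 1 library gave -0.15 to 0.31 for RMER17D2 antisense, with -0.09 among them, and -0.011 to 0.96 for RLTRETN_Mm antisense. In the homozygous IP against testis, RLTR45 sense was 0.29 with TMM within the transposon table and RLTR9E sense -1.62 to 0.028 leaving out 1 library. The cause was not tested. Total genic reads moved the median of all transposon entries between the IPs from 0.87 to 1.20 and in the homozygous IP against testis from -0.89 to -1.29. Depth limits entries such as MMTV-int sense, which rests on 7 and 4 reads in the heterozygous IPs.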
